A study of Danio rerio with 4 samples.

Results

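The cells described here are 103 myocardial cells of the embryonic zebrafish heart that carry transcripts of pacemaker genes. They were taken from the 3779 cells that the study annotated as Myocardium, among 34676 annotated cells and 52447 barcodes, by a count rule: each holds at least 1 raw UMI (a counted RNA molecule) of at least 3 of 6 genes, lyve1a, shox2, isl1, fgf13a, chrm2a and vsnl1a. They are called sinoatrial-type cells, and 101 of the 103 also held more UMIs of the atrial myosin heavy chain myh6 than of the ventricular myh7l. They were compared with the 933 other Myocardium cells in which myh6 exceeded myh7l, called other atrial-type cells. The counts of the 6 genes and of both myosins chose the cells, so they are given as a description only.

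Whole hearts were pooled from embryos that carried Tg(myl7:mRFP), which puts a red protein in cardiomyocytes, together with an enhancer trap, either sqet31Et or sqet33mi59BEt, with EGFP in the sinoatrial and atrioventricular regions. No other treatment is named, and hearts were collected at 48 or at 72 hours post fertilization (hpf). Each line and stage gave 1 droplet library from many pooled hearts, so a stage has 2 libraries that differ in line, and nothing in the labels says that any of them was repeated. The sinoatrial-type cells numbered 74 in the 48 hpf sqet31Et library, 5 in 48 hpf sqet33mi59BEt, 20 in 72 hpf sqet31Et and 4 in 72 hpf sqet33mi59BEt, and values below follow this order. The other atrial-type cells numbered 321, 121, 288 and 203.

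The heartbeat starts in a small group of cardiomyocytes at the inflow of the atrium, the sinoatrial node, which depolarize without an outside stimulus. Their rhythm is described as a membrane clock, led by hyperpolarization-activated HCN channels, coupled to a calcium clock of release and uptake by the sarcoplasmic reticulum, and it is slowed by acetylcholine through muscarinic receptors and G proteins. In zebrafish and mouse the transcription factors Isl1 and Shox2 hold these cells apart from the working atrial muscle, which in mammals carries more Nkx2-5, Nppa and the fast connexin Cx40.

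The rule took few cells outside the myocardium. It was met by 2 of 937 cells annotated as Cardiac peripheral nerves, by 1 of 10612 Endothelial cells and by 0 cells of every other annotated cluster, against 2.73% of Myocardium. Within Myocardium 3257 cells held none of the 6 genes, 349 held 1, 70 held 2, 42 held 3, 26 held 4, 28 held 5 and 7 held all 6. Just outside the threshold, the 70 cells with 2 genes had a median of 2 UMIs of the 6 and a median of 5363 UMIs in all. Just inside, the 42 cells with 3 genes had a median of 5 UMIs of the 6 and 3888.5 UMIs in all. Among the 103 cells, fgf13a and chrm2a were each found in 79.6%, lyve1a in 69.9%, shox2 in 67.0%, isl1 in 52.4% and vsnl1a in 51.5%.

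The sinoatrial-type cells carried heart muscle transcripts: cmlc1 and tnnt2a were found in 103 of the 103 cells, myl7 in 102 and ttn.2 in 101. Over all libraries, cmlc1 stood at 321 UMIs per 10000 against 227 in the other atrial-type cells and tnnt2a at 117 against 99.0, while myl7 was lower at 156 against 181. Such pooled levels mix the libraries unlike in each class: 48 hpf sqet31Et gave 74 of 103 sinoatrial-type cells and 321 of 933 others. The summed level of myl7, cmlc1, tnnt2a, myh6 and ttn.2 was 796, 678, 520 and 538 UMIs per 10000 in the sinoatrial-type cells and 773, 652, 383 and 415 in other atrial-type cells, a sum that includes myh6, which chose the comparison cells. Of the other cell types, the 7 endothelial markers summed to between 0.488 and 3.53 UMIs per 10000 in the sinoatrial-type cells and between 0.660 and 3.95 in the others, and the 5 neural crest markers to at most 0.511 and 0.597. Erythrocyte markers reached 18.8 against 33.6 in 72 hpf sqet33mi59BEt, and liver and bulbus arteriosus markers, given with their results below, were also present in both classes. The sinoatrial-type cells were deeper than the others in 4 of 4 libraries, with median totals of 6874.5, 4432, 3656.5 and 2224 UMIs against 5776, 2198, 2144 and 990. The mean difference of 1520 UMIs had a two-sided p of 0.125 in an exact sign-flip permutation test, the smallest that 4 libraries allow (adjusted p = 0.292 over the 7 tests of this kind here). A rule that asks for several UMIs favours deep cells, so values are also given against comparison cells matched in total UMIs, 3 for each sinoatrial-type cell. Of the barcode sequences, 51907 occurred in 1 library and 270 in 2, and 1 of the 270 belonged to a sinoatrial-type cell.

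For the tests of genes, UMIs were summed over each class in each library that gave at least 5 cells of both classes, and edgeR's quasi-likelihood test compared the sums with the library as a block. This left out 72 hpf sqet33mi59BEt, whose 4 sinoatrial-type cells held 8507 UMIs together. The sums of the other sinoatrial-type cells held 512053, 19574 and 76045 UMIs, so a single UMI was worth 0.511 UMIs per 10000 in the 5 cells of 48 hpf sqet33mi59BEt and 1.18 in the 4 cells outside the fit. A level below is such a sum per 10000 UMIs, and a difference is the fitted log2 fold change, sinoatrial-type over other atrial-type, with its standard error (SE) and Benjamini-Hochberg adjusted p.

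Of 3783 genes tested, 190 (5.02%) passed an adjusted p of 0.05, of which 126 (3.33%) were higher and 64 (1.69%) lower in the sinoatrial-type cells. Of the 190, 168 pointed the same way in all 3 libraries, 118 higher and 50 lower. The result leaned on the libraries with many cells: 33 genes passed without 48 hpf sqet31Et and 97 without 72 hpf sqet31Et, and 17 passed with no library block. DESeq2 called 47 genes (1.24%), 38 (1%) higher and 9 (0.238%) lower. Sums of at least 4 cells brought in the library left out and gave 158 of 2877 genes (5.49%), 94 (3.27%) higher and 64 (2.22%) lower. Scaling to library totals in place of TMM moved the median of all genes from -0.05 to 0.12 on the log2 scale and the split from 126 higher and 64 lower to 200 higher and 50 lower. With comparison cells matched in total UMIs, 1669 genes could be tested and 34 (2.04%) passed, 29 (1.74%) higher and 5 (0.3%) lower, all of them among the 190. In the library outside the fit, 62 of 124 higher genes with a UMI were higher in the 4 sinoatrial-type cells, against 1313 of 3764 genes tested (34.9%), and 12 of 64 lower genes were.

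**Figure D1:**
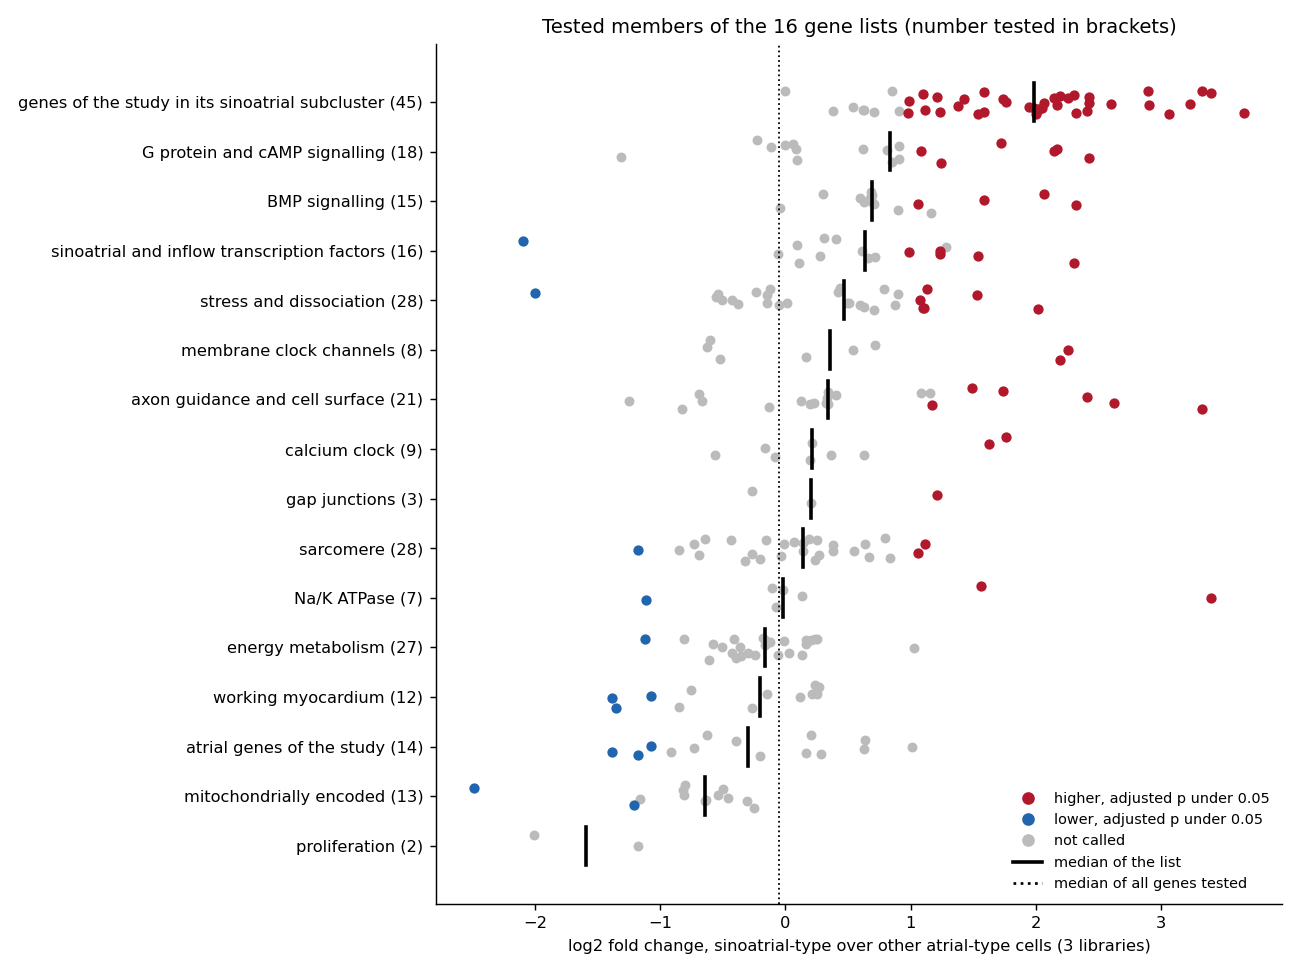
Log2 fold change of sinoatrial-type over other atrial-type cells for every tested member of 16 gene lists, from the fit over 3 libraries. Red points passed as higher, blue as lower and grey did not pass; the thick bar is the median of a list and the dotted line the median of all 3783 genes, -0.05. The G protein and BMP lists sit to the right of that line and the mitochondrially encoded genes to its left.

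BMP ligands and their antagonist were among the genes that rose. bmp4, a secreted ligand that zebrafish heart muscle makes at the inflow and in the atrioventricular canal, reached 7.71, 38.8, 9.21 and 8.23 UMIs per 10000 in the sinoatrial-type cells and 1.97, 3.49, 1.80 and 3.23 in the others. All 4 values lay above all 4 comparison values, and the log2 difference was 2.32 (SE 0.32, adjusted p = 3.9e-10). A UMI of bmp4 was found in 87.4% of the sinoatrial-type cells and in 33.3% of the others. Shares of cells with a gene, here and below, pool libraries of unlike depth, and most sinoatrial-type cells come from the deepest. In that library, 48 hpf sqet31Et, bmp4 was found in 67 of 74 cells against 151 of 321.

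bmp5, a ligand of the BMP5 to BMP8 branch of the family, stood at 5.35, 6.13, 3.29 and 2.35 UMIs per 10000 against 1.29, 1.19, 0.545 and 0.997. It was found in 82.5% against 16.6% of cells, with a log2 difference of 2.06 (SE 0.35, adjusted p = 3.8e-07). The pseudoreceptor BAMBI (ENSDARG00000055381, a zebrafish copy listed under the human symbol), which damps signalling by this family, had levels of 14.0, 23.5, 6.84 and 11.8 against 5.88, 2.87, 2.61 and 3.91. Both genes had no overlap between the classes, and BAMBI rose by 1.58 on the log2 scale (SE 0.33, adjusted p = 0.000108). The second copy listed under that symbol, ENSDARG00000099677, differed by 0.71 (adjusted p = 0.37). The transcriptional target id4 rose by 1.06 (SE 0.32, adjusted p = 0.028), but it passed in 4 of 16 alternative settings and differed by 0.82 against depth-matched cells and by 0.41 in barcodes that the study did not keep. Of the 15 tested genes of the BMP list, of 27 in all, 4 rose and 0 fell, and the median of the list was 0.69. Over all genes tested, 3.33% rose and 1.69% fell. Other targets did not pass, among them id1 at 0.69 (adjusted p = 0.27) and id3 at 0.90 (adjusted p = 0.16).

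Because bmp4 also marks the atrioventricular canal, the other genes of that region were read beside it. The T-box repressor tbx2b, which zebrafish hearts carry in the canal, was at 3.53, 0, 1.58 and 0 UMIs per 10000 in the sinoatrial-type cells and at 3.25, 1.62, 0.830 and 1.52 in the others (log2 difference -0.06, adjusted p = 0.96). Its pooled shares were still 67.0% against 31.6% of cells, so such shares can differ where the levels do not. The other 3 markers of the canal list, bmp6, alcama and ved, had pooled levels of 0.0487, 6.23 and 0.828 in the sinoatrial-type cells against 0.105, 9.59 and 1.36. These too mix the libraries unlike in each class. The whole list, bmp4 included, summed to 18.4, 45.0, 17.8 and 16.5 against 18.7, 14.2, 10.0 and 11.9.

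**Figure D2:**
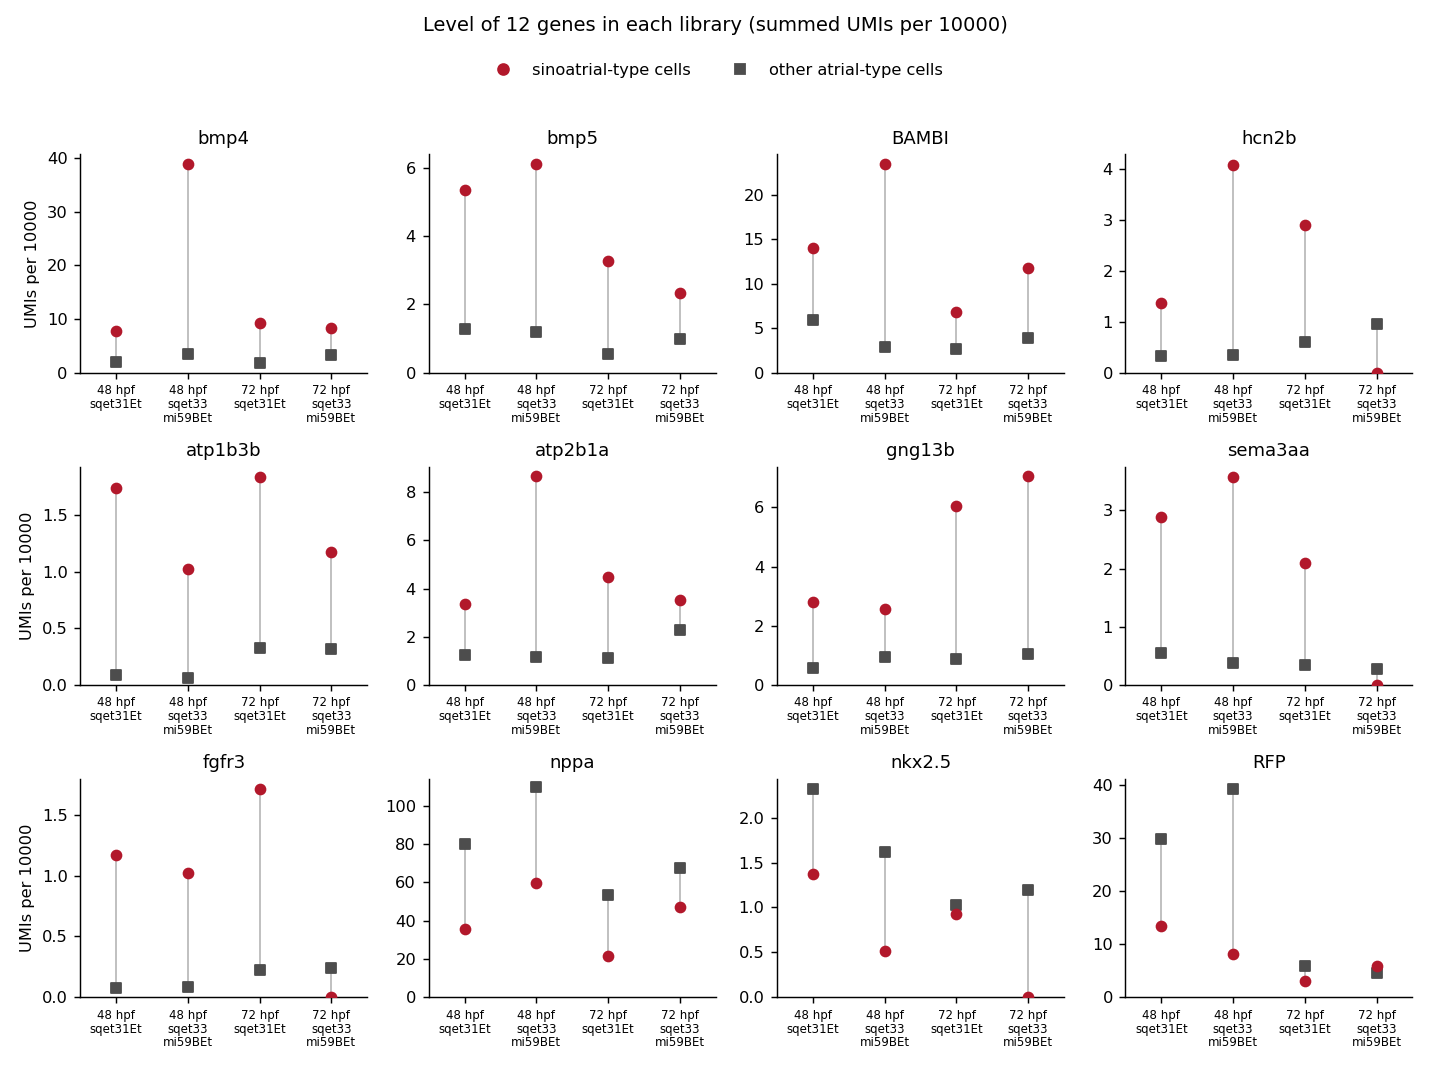
Level of 12 genes in each library, as summed UMIs per 10000, with sinoatrial-type cells as red circles and other atrial-type cells as grey squares, 1 sum per class and library. The red values of bmp4, bmp5, BAMBI, atp1b3b, atp2b1a and gng13b lie above the grey in all 4 libraries, and those of nppa and nkx2.5 below; the value at 0 of hcn2b, sema3aa, fgfr3 and nkx2.5 comes from the library of 4 cells.

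Among transcription factors of the sinoatrial and inflow region, 5 of 16 tested rose and 1, not reported here, fell, with a median of 0.64. Of all genes tested 3.33% were higher and 1.69% lower. tbx18, which builds the head of the sinus node in mouse, was detected in 12.6% of the sinoatrial-type cells and in 1.82% of the others. Its levels were 0.234, 1.53, 0.658 and 0 UMIs per 10000 against 0.0524, 0.0568, 0.136 and 0.0399, a log2 difference of 2.31 (SE 0.53, adjusted p = 0.001). Only the sinoatrial-type sums took it past the filter on low counts, so being tested already required a high level there. The threshold was passed in 6 of 11 alternative settings. tbx18 is also a marker of the epicardium, whose 4 listed genes summed to 0.352, 2.55, 0.789 and 0 in the sinoatrial-type cells against 0.142, 0.142, 0.347 and 0.279. The epicardial genes wt1b and aldh1a2 were at 0 UMIs and tcf21 had 9 UMIs in 8 cells.

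The zinc finger factor sall4, which partners cardiac T-box factors, had levels of 3.14, 5.62, 2.63 and 1.18 against 0.776, 1.25, 1.21 and 1.28 and rose by 1.54 (SE 0.35, adjusted p = 0.00079). Its values overlapped only through the library of 4 cells. The cardiac factors hand2 and gata5 each rose by 1.24 (adjusted p = 0.0061 and 0.016), and mef2aa, a muscle factor, by 0.99 (adjusted p = 0.044). hand2 passed in 6 of 16 alternative settings, with a difference of 0.55 in barcodes not kept. tbx3a, a node factor in mammals, was too sparse for a test, with 2 UMIs in the sinoatrial-type cells and 5 in the others.

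Of the channels of the membrane clock, 2 tested HCN genes rose. hcn2b was at 1.37, 4.09, 2.89 and 0 UMIs per 10000 in the sinoatrial-type cells against 0.330, 0.341, 0.607 and 0.958, and it was found in 54.4% against 13.8% of cells. The 3 libraries of the fit lay above all comparison values, and the level was 4.56-fold higher in the fit (SE 0.37 on the log2 scale, adjusted p = 4.6e-07). HCN4 (ENSDARG00000061685), whose product carries most of the pacemaker current in mammals, was rare at 0.273, 1.53, 0.263 and 0 against 0.0629, 0.0852, 0.0496 and 0.319. Its log2 difference was 2.26 (SE 0.55, adjusted p = 0.0022), and it was detected in 16.5% against 2.68% of cells. HCN4 passed the filter on low counts through the sinoatrial-type sums alone, so being tested already required a high level there. The threshold was passed in 6 of 11 alternative settings, and DESeq2 gave an adjusted p of 0.081. The second copy listed under that symbol, ENSDARG00000074419, had 0 UMIs in both classes.

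Other channels did not pass. Of 33 channel genes on the list 8 were abundant enough to be tested, 2 rose and 0 fell, with a median of 0.36. Over all genes tested, 3.33% rose and 1.69% fell. kcnh6a, the zebrafish heart's repolarizing hERG-type potassium channel, was at 0.859, 6.13, 1.18 and 5.88 UMIs per 10000 against 1.27, 3.44, 2.92 and 2.83 (log2 difference -0.62, adjusted p = 0.38), higher in both sqet33mi59BEt libraries and lower in both sqet31Et libraries. tmem38a, a counter-ion channel of the sarcoplasmic reticulum, differed by 0.72 (adjusted p = 0.35).

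A sparse channel gene fell outside the filter on low counts and was picked out after its values were seen, among list genes with at least 20 UMIs in the sinoatrial-type cells. KCNJ3 (ENSDARG00000062217), a subunit of the potassium channel that muscarinic receptors open, had 20 UMIs in 15 of 103 sinoatrial-type cells and 1 UMI in 933 other atrial-type cells. Of the 20 UMIs, 19 came from 48 hpf sqet31Et and 1 from 72 hpf sqet31Et.

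Of the sodium pump list, 2 of 7 tested genes rose and 1 fell, against 3.33% and 1.69% of all genes tested. atp1b3b, which encodes a beta subunit of the Na/K ATPase, was at 1.74, 1.02, 1.84 and 1.18 UMIs per 10000 in the sinoatrial-type cells and at 0.0891, 0.0568, 0.322 and 0.319 in the others. The classes did not overlap, and the log2 difference was 3.40 (SE 0.40, adjusted p = 2.6e-14). It was found in 60.2% of the sinoatrial-type cells and in 4.29% of the others, and it passed the threshold in 16 of 16 alternative settings. The other atrial-type sums alone would not have passed the filter on low counts, so being tested required a high level in the sinoatrial-type cells. In sqet33mi59BEt the sinoatrial-type level rests on 2 UMIs in 1 cell at 48 hpf and 1 UMI in 1 cell at 72 hpf. The alpha subunit atp1a2a was at 0.488, 1.02, 0.921 and 1.18 against 0.183, 0.0852, 0.223 and 0.678 and rose by 1.57 (SE 0.44, adjusted p = 0.013). That gene passed the filter on low counts through the sinoatrial-type sums alone. Past the threshold were 7 of 15 alternative settings, and DESeq2 gave an adjusted p of 0.22. fxyd1, a small regulator of the pump, fell by 1.11 (SE 0.34, adjusted p = 0.027), with 3.20, 2.55, 3.42 and 3.53 against 6.57, 5.51, 5.33 and 4.63 UMIs per 10000 and no overlap. fxyd1 passed in 8 of 16 alternative settings and missed the threshold against depth-matched cells (adjusted p = 0.12) and with DESeq2 (adjusted p = 0.19). The other 4 did not pass, and the median of the list was -0.02.

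The study targeted atp1b3b, on chromosome 15, and colec10, on chromosome 16, with 3 guide RNAs for each gene. The guides are shown because these genes were picked by the study from cells of this kind, and embryos injected with them are not among these libraries. The 20 bases of each guide are in lower case and the PAM, the motif Cas9 needs beside its target, is in capitals.
atp1b3b guide 1: gttatcgggcttaagccgcgAGG
atp1b3b guide 2: tcccaaatacagggaccgagTGG
atp1b3b guide 3: agcaaatgagccctgtcaggAGG
colec10 guide 1: gccttgagccaggtagactgTGG
colec10 guide 2: ttgaactgcaagttgcgtggTGG
colec10 guide 3: agagaccttgcttgccagatGGG

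colec10, a secreted collectin, was at 2.42, 5.11, 1.05 and 1.18 UMIs per 10000 in the sinoatrial-type cells against 0.881, 1.42, 0.322 and 0.678. The value was higher in 4 of 4 libraries, but the classes overlapped between libraries. Its log2 difference of 1.38 (SE 0.38, adjusted p = 0.011) was smaller than the 3.40 of atp1b3b, and it was found in 18.1% of the other atrial-type cells against 4.29% for atp1b3b. It passed the threshold in 9 of 16 alternative settings.

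In the calcium clock list, 2 of 9 tested genes rose and 0 fell, against 3.33% and 1.69% of all genes tested. atp2b1a, the plasma membrane pump that removes calcium from the cell, was at 3.36, 8.68, 4.47 and 3.53 UMIs per 10000 against 1.26, 1.16, 1.1 and 2.27, with no overlap (log2 difference 1.76, SE 0.33, adjusted p = 1.5e-05). hrc, a calcium-binding protein of the sarcoplasmic reticulum, rose by 1.63 (SE 0.38, adjusted p = 0.001). It passed in 10 of 15 alternative settings, and DESeq2 gave an adjusted p of 0.26. The uptake pump atp2a2a had levels of 20.5, 26.1, 20.3 and 16.5 against 12.8, 12.7, 10.5 and 10.7 and did not overlap, but its log2 difference of 0.63 (SE 0.34) had an adjusted p of 0.34. slc8a1a, the sodium-calcium exchanger, differed by 0.36 (adjusted p = 0.63), and casq2, the calcium store protein, by -0.08 (adjusted p = 0.94).

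G protein and cAMP genes had a median of 0.83, below only the study's own list for its sinoatrial subcluster. Of 18 tested genes 6 were higher and 0 lower, against 3.33% and 1.69% of all genes tested. The genes gng13b, pde4ba and NCS1, given next, are also on that list of the study. gng13b, a gamma subunit of heterotrimeric G proteins, was at 2.81, 2.55, 6.05 and 7.05 UMIs per 10000 in the sinoatrial-type cells and at 0.556, 0.938, 0.867 and 1.04 in the others. These did not overlap, and the log2 difference was 2.15 (SE 0.36, adjusted p = 3.3e-07). pde4ba, a phosphodiesterase that breaks down cAMP, rose by 2.43 (SE 0.37, adjusted p = 1.1e-08). The calcium sensor NCS1 (ENSDARG00000055229) stood at 1.78, 3.07, 1.58 and 1.18 against 0.645, 0.313, 0.0496 and 0.160 and rose by 2.17 (SE 0.38, adjusted p = 2.1e-06). The difference of NCS1 was 3.76 without 48 hpf sqet31Et, and against depth-matched cells it was 1.84 and missed the threshold (adjusted p = 0.118).

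The regulator rgs6, which in mouse shortens muscarinic signalling in pacemaker cells, rose by 1.72 (SE 0.44, adjusted p = 0.0047) and was found in 29.1% against 5.25% of cells. Against depth-matched cells rgs6 differed by 1.25 and missed the threshold (adjusted p = 0.21), as it did with DESeq2 (adjusted p = 0.18). In all, 7 of 14 alternative settings passed. GNB5 (ENSDARG00000055377), the beta subunit that binds regulators like rgs6, rose by 1.24 (adjusted p = 0.016). rrad, a small GTPase that restrains calcium channels, rose by 1.08 (adjusted p = 0.029). The receptor gene gpr78a, picked out by the same minimum of 20 UMIs, was too sparse for the test: it had 89 UMIs in 37 of the 103 sinoatrial-type cells and 30 UMIs in 27 of the 933 others, and 82 of the 89 came from 48 hpf sqet31Et.

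Genes of axon guidance and the cell surface gave 6 higher and 0 lower of 21 tested, with a median of 0.34. Over all genes tested, 3.33% were higher and 1.69% lower. sema3aa, a secreted repellent of axons, was at 2.89, 3.58, 2.10 and 0 UMIs per 10000 in the sinoatrial-type cells and at 0.556, 0.369, 0.347 and 0.279 in the others. It was found in 68.9% against 12.1% of cells, and the log2 difference was 2.40 (SE 0.39, adjusted p = 1.4e-07). The teneurin tenm3, an adhesion protein that matches neurons to their partners, rose by 2.62 (SE 0.37, adjusted p = 4.1e-10). The receptor of fibroblast growth factors fgfr3 had 1.17, 1.02, 1.71 and 0 against 0.0786, 0.0852, 0.223 and 0.239 and rose by 3.33 (SE 0.41, adjusted p = 3.3e-13). Only the sinoatrial-type sums took fgfr3 past the filter on low counts. For tenm3 too, the other atrial-type sums alone would not have passed it. fgfr4 rose by 1.49 (adjusted p = 0.008), fgfr2 by 1.17 (adjusted p = 0.031) and the cadherin cdh11 by 1.74 (adjusted p = 0.00019). Neuronal markers gave no value above 1.18 UMIs per 10000 in the sinoatrial-type cells, in sum over 6 genes.

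Working muscle genes pointed the other way in part. nppa, the atrial natriuretic peptide gene of the chamber muscle, was at 35.4, 59.8, 21.3 and 47.0 UMIs per 10000 in the sinoatrial-type cells against 79.9, 110, 53.5 and 67.3. It was lower in 4 of 4 libraries, with values that overlapped between libraries, and fell by 1.38 on the log2 scale (SE 0.37, adjusted p = 0.0074). Its neighbour nppb fell by 1.08 (SE 0.35, adjusted p = 0.049), with levels of 2.68, 46.0, 18.9 and 5.88 against 10.3, 44.5, 28.1 and 24.7, slightly above the comparison in 48 hpf sqet33mi59BEt, and its difference was -0.53 without 48 hpf sqet31Et (adjusted p = 0.77). myh7, a ventricular-type myosin heavy chain, fell by 1.35 (SE 0.36, adjusted p = 0.0063). Its levels were 11.7, 6.64, 2.10 and 7.05 against 22.4, 17.2, 4.53 and 5.67, above the comparison in the library outside the fit. It missed the threshold against depth-matched cells (adjusted p = 0.054) and without 48 hpf sqet31Et (adjusted p = 0.17). The 4 ventricular markers summed to 13.5, 8.17, 2.63 and 7.05 against 25.8, 19.2, 5.97 and 8.30. That sum is a description only, since it includes myh7l, which chose the comparison cells, and is mostly myh7 again. In the sinoatrial-type cells myh7 had 632 UMIs, myh7l 96, mb 6 and tnni4a 1. In all, 3 of 12 tested genes of the working muscle list fell and 0 rose, with a median of -0.21. Over all genes tested, 1.69% fell and 3.33% rose.

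nkx2.5, the factor that mammalian nodal cells hold low, was at 1.37, 0.511, 0.921 and 0 UMIs per 10000 against 2.32, 1.62, 1.03 and 1.2. The values were lower in 4 of 4 libraries, but the log2 difference of -0.85 (SE 0.41) had an adjusted p of 0.26. Connexin genes of the GJA5 group were too sparse to compare: ENSDARG00000040065 had 0 UMIs in the sinoatrial-type cells and 2 in the others, and ENSDARG00000069450 had 1 and 13. cx36.7, a connexin of the early zebrafish heart, rose by 1.21 (SE 0.38, adjusted p = 0.036), with 3.53, 1.02, 2.10 and 5.88 against 1.38, 0.710, 0.620 and 1.2.

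Among atrial genes that the study lists, 3 of 14 fell, nppa, nppb and acta1b, and 0 rose. Over all genes tested, 1.69% fell and 3.33% rose. acta1b, an alpha-actin, fell by 1.17 (SE 0.37, adjusted p = 0.037), with 33.7, 13.8, 31.0 and 1.18 against 69.1, 49.5, 32.5 and 25.3 UMIs per 10000. smtnl1, a smoothelin-like muscle protein, had levels of 30.2, 28.1, 22 and 10.6 against 12.5, 13, 8.48 and 3.43 and a log2 difference of 1.01 that missed the threshold (SE 0.34, adjusted p = 0.057). tnnc1b, an atrial troponin C, differed by 0.64 (adjusted p = 0.35).

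The sarcomere list had 2 of 28 tested genes higher, 1 lower and a median of 0.14. Over all genes tested, 3.33% were higher and 1.69% lower, with a median of -0.05. mylk3, the kinase that phosphorylates the cardiac myosin light chain, was at 4.14, 9.71, 5.65 and 11.8 UMIs per 10000 against 1.80, 2.67, 2.61 and 2.55, with no overlap, and rose by 1.11 (SE 0.32, adjusted p = 0.014). The myosin heavy chain myh7bb rose by 1.06 (SE 0.32, adjusted p = 0.021). myl7, the light chain whose promoter drives the red reporter, differed by -0.69 (SE 0.40, adjusted p = 0.38).

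**Figure D3:**
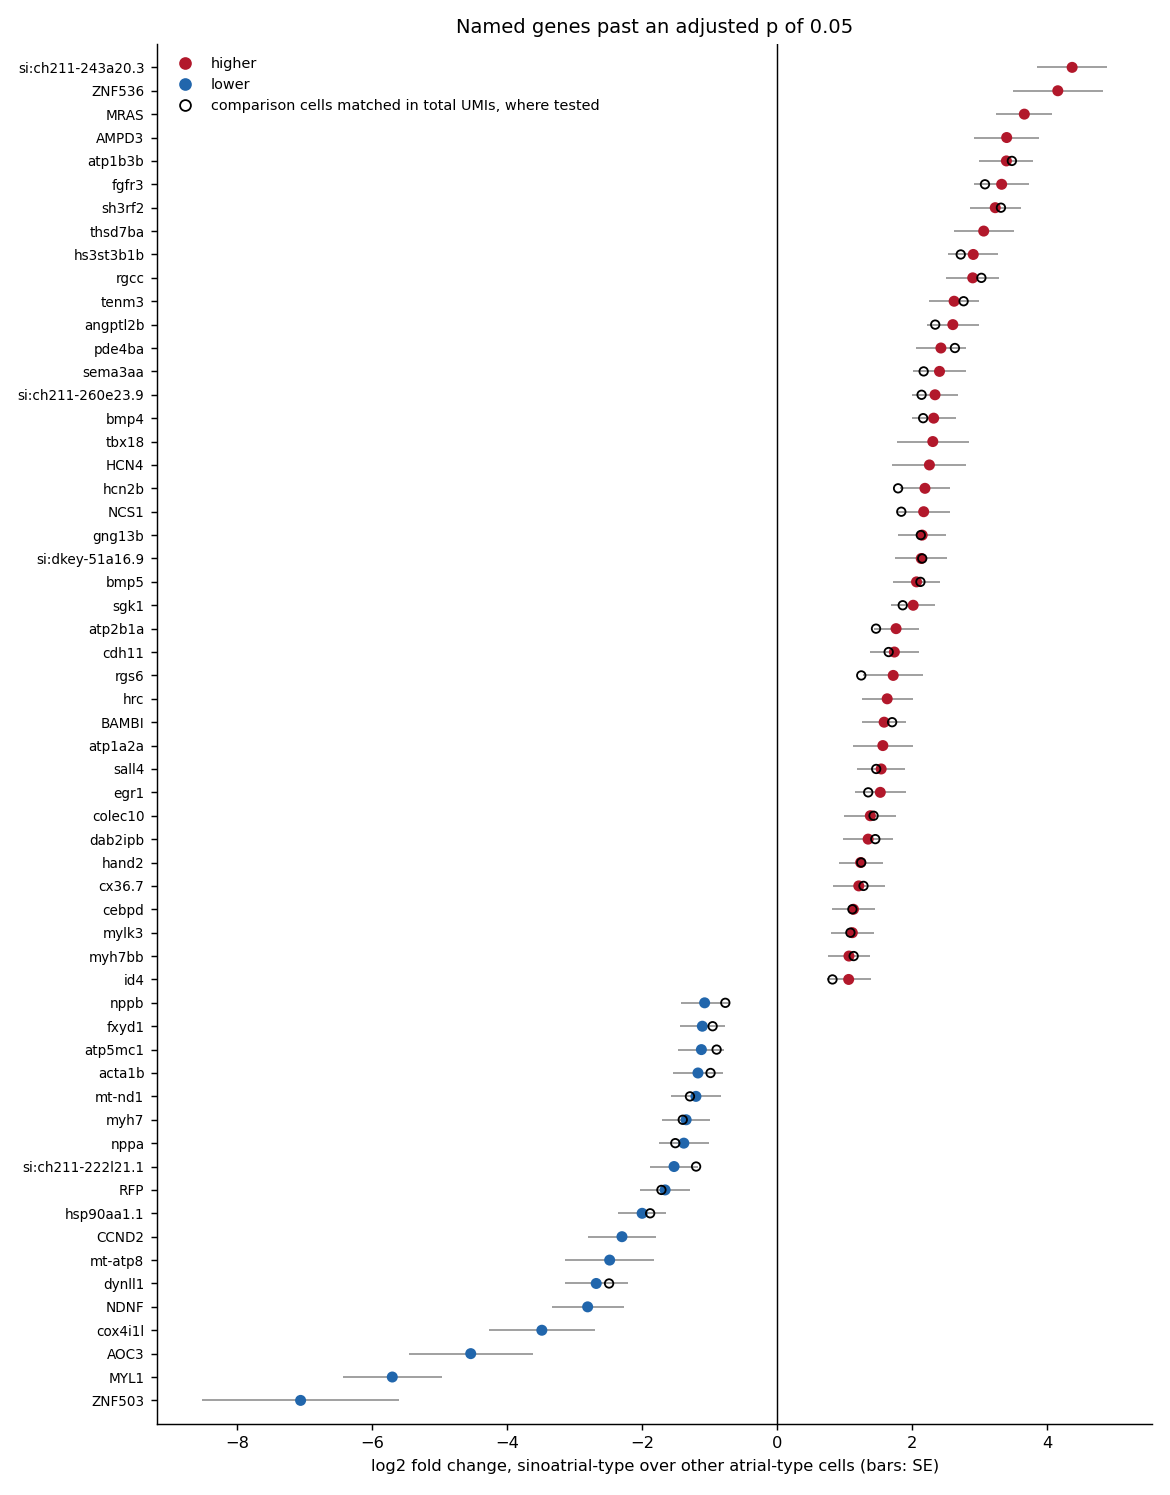
Log2 fold change of sinoatrial-type over other atrial-type cells for named genes that passed an adjusted p of 0.05 (filled points, bars show the SE), with the value against comparison cells matched in total UMIs where it could be tested (open points). The gene he1.1 and a transcription factor not reported here also passed and are left out. The open points lie on the same side of 0 as the filled points for every gene shown; the fitted values of MYL1, AOC3, ZNF503 and cox4i1l rest on 0 to 2 UMIs in the sinoatrial-type cells.

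Outside the pathway lists, the genes with the smallest p that rose were led by MRAS (ENSDARG00000062865), a muscle member of the RAS GTPases, at 1.39, 4.60, 0.658 and 2.35 UMIs per 10000 against 0.0734, 0.170, 0.136 and 0.399. It did not overlap and rose by 3.66 (SE 0.41, adjusted p = 3.2e-15). The ubiquitin ligase sh3rf2 was at 2.07, 8.17, 2.37 and 1.18 against 0.220, 0.369, 0.297 and 0.638, also without overlap, and rose by 3.23 (SE 0.38, adjusted p = 2.6e-14). angptl2b, a secreted angiopoietin-like protein, had 2.15, 3.07, 1.84 and 4.70 against 0.351, 0.398, 0.211 and 0.160 and rose by 2.60 (SE 0.38, adjusted p = 3e-09). The 3 genes were found in 54, 62 and 62 of the 103 sinoatrial-type cells. They are also on the study's own list for its sinoatrial subcluster, as are hs3st3b1b, rgcc and thsd7ba below.

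The remaining genes of this group had log2 differences between 2.34 and 4.37. They included hs3st3b1b, a sulfotransferase that modifies heparan sulfate (2.90), rgcc, a cell cycle regulator (2.90), the thrombospondin-repeat protein thsd7ba (3.06), AMPD3 (ENSDARG00000005800), an AMP deaminase (3.40), the zinc finger gene ZNF536 (4.16) and the unnamed locus si:ch211-243a20.3 (4.37), with a second unnamed locus at 2.34. rgcc had 3.53 UMIs per 10000 against 3.51 in the library outside the fit, and the difference was seen in the other 3 libraries. Genes rare in the other atrial-type cells, among them ZNF536, AMPD3 and si:ch211-243a20.3, passed the filter on low counts through the sinoatrial-type sums alone. MRAS, thsd7ba, fgfr3, rgs6, atp1a2a, HCN4 and tbx18 did so too. For all of these, being tested already required a high level in the sinoatrial-type cells. The other atrial-type sums alone would also not have passed the filter for tenm3, sh3rf2, angptl2b, rgcc, pde4ba, NCS1, hrc and si:dkey-51a16.9. Their being tested thus leaned on the sinoatrial-type sums, as for atp1b3b.

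Among the genes that fell, several were nearly absent from the sinoatrial-type cells. They passed the filter on low counts through the other atrial-type sums alone, so being tested already required a high level there. MYL1 (ENSDARG00000017441), a light chain of fast muscle, had 2 UMIs in all 103 cells against 428 in the others, 39.7-fold lower per UMI with a counting interval of 11 to 328. ZNF503, a zinc finger repressor, had 0 UMIs against 96 and was at least 5.94-fold lower, taking 3 counts over the group as the limit. AOC3, an amine oxidase, had 1 UMI against 128 (23.8-fold lower, interval 4.27 to 939) and the cytochrome oxidase subunit cox4i1l had 2 against 162 (15-fold lower, interval 4.16 to 124). In barcodes that the study did not keep, the differences were smaller, at -2.27 for MYL1, -1.49 for ZNF503, -1.16 for AOC3 and -0.90 for cox4i1l on the log2 scale, each past the threshold there.

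More abundant genes that fell were the dynein light chain dynll1, with 0.371, 0, 0.395 and 0 UMIs per 10000 against 2.05, 2.44, 1.75 and 1.12 (log2 difference -2.68, SE 0.47, adjusted p = 1.5e-06), and the chaperone hsp90aa1.1, which folds muscle myosin in zebrafish. hsp90aa1.1 had 2.11, 0, 3.95 and 2.35 against 6.21, 5.40, 12.5 and 8.14, with no overlap (log2 difference -2.0, SE 0.36, adjusted p = 2.6e-06). The secreted factor NDNF fell by 2.81 (SE 0.53, adjusted p = 1.5e-05) and the cyclin CCND2 (ENSDARG00000051748) by 2.30 (SE 0.50, adjusted p = 0.00031). They were found in 8 and 10 sinoatrial-type cells. Without 48 hpf sqet31Et their differences were -2.06 and -1.85 (adjusted p = 0.47 and 0.51), and DESeq2 gave adjusted p of 0.028 and 0.099. For dynll1, hsp90aa1.1, NDNF and CCND2 the sinoatrial-type sums alone would not have passed the filter on low counts. The unnamed locus si:ch211-222l21.1 fell by 1.53 (adjusted p = 0.00087). In barcodes not kept dynll1 differed by -0.97, hsp90aa1.1 by -1.17 and si:ch211-222l21.1 by -0.31.

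Mitochondrially encoded genes lay below 0 in 13 of 13 cases, with a median of -0.64, and 2 passed. Over all genes tested, 2036 of 3783 lay below 0 and 1.69% passed as lower. mt-nd1, a subunit of complex I, was at 7.83, 16.9, 45.4 and 34.1 UMIs per 10000 against 13.9, 53.9, 64.2 and 65.8 and fell by 1.2 (SE 0.36, adjusted p = 0.026), and mt-atp8 fell by 2.48 (SE 0.66, adjusted p = 0.0065). The value of mt-atp8 rests on 4 UMIs, all from the sinoatrial-type cells of 72 hpf sqet31Et, and it was -1.26 without 48 hpf sqet31Et (adjusted p = 0.65) and -0.87 in barcodes not kept. The sinoatrial-type sums of mt-atp8 alone would not have passed the filter on low counts. The deposited mitochondrial percent per cell had medians of 2.62, 10.8, 15.5 and 10.9 against 3.66, 8.69, 18.1 and 13.3, a mean difference of -0.953 percentage points (exact sign-flip permutation p = 0.375, adjusted p = 0.656). Of nuclear energy genes 1 of 27 tested passed, atp5mc1 of the ATP synthase, which fell by 1.12 (SE 0.34, adjusted p = 0.026), and the median was -0.16.

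Stress and dissociation genes moved with the class as well, with 6 of 28 tested higher, 1 lower and a median of 0.47. Over all genes tested, 3.33% were higher and 1.69% lower. sgk1, a kinase of the salt and stress response, was at 2.81, 11.8, 7.23 and 0 UMIs per 10000 against 0.524, 0.909, 3.53 and 3.51 (log2 difference 2.01, SE 0.33, adjusted p = 2e-07). The immediate early gene egr1 was at 0.410, 12.8, 2.10 and 2.35 against 0.309, 0.568, 1.15 and 0.997, and its difference of 1.53 (SE 0.38, adjusted p = 0.0028) was largest in the 5 cells of 48 hpf sqet33mi59BEt. Without 48 hpf sqet31Et the difference of egr1 was 2.35, and in barcodes not kept it was 0.36. cebpd rose by 1.13 (adjusted p = 0.015) but passed in 4 of 16 alternative settings, with a difference of 0.12 in barcodes not kept, while hsp70l differed by -0.15 (adjusted p = 0.89). The part of these genes in the other results was not tested.

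Another marker that moved was acta2, a smooth muscle actin listed for the bulbus arteriosus. The 4 bulbus markers summed to 11.1, 10.7, 4.34 and 1.18 UMIs per 10000 in the sinoatrial-type cells against 4.09, 5.17, 1.45 and 1.16, and acta2 made up 618 of their UMIs. The defining elastin gene elnb was at 0 UMIs, fbln5 at 1 and postnb at 6.

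The study's own list for its sinoatrial subcluster had 37 of 45 tested genes higher, 0 lower and a median of 1.99. That list was drawn from these same libraries, so the count is not independent evidence. Genes called in the pathway lists are on it too, among them bmp4, bmp5, hcn2b, HCN4, atp1b3b, fgfr3 and sema3aa. Counts of those lists are thus not independent of the study's results. The 8 genes of the study's list that did not pass included atp2a2a (0.63), gnao1a (0.90), kcnq1.1 (0.54), lmod2a (0.38) and the endothelin receptor ednraa (0.62).

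Over the 8 sums of both classes in 4 libraries, the genes whose level ran closest to the summed level of the 6 were dab2ipb (Pearson r = 0.990), si:dkey-51a16.9 (0.986), SMPX (0.959), NCS1 (0.947) and atp2a2a (0.942). These are descriptions over sums that share libraries and a class contrast. SMPX, a small muscle protein, had 3.20, 5.11, 3.68 and 3.53 UMIs per 10000 against 2.55, 2.22, 1.72 and 2.11, and its log2 difference of 0.57 (SE 0.33) did not pass (adjusted p = 0.40). dab2ipb, a GTPase-activating protein, rose by 1.35 (SE 0.37, adjusted p = 0.0099) and si:dkey-51a16.9 by 2.13 (SE 0.39, adjusted p = 4.7e-06).

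Transcripts of the EGFP reporter, which the rule did not use, were found in 8 of 74, 2 of 5, 1 of 20 and 1 of 4 sinoatrial-type cells, or 10.8%, 40%, 5% and 25%. In the other atrial-type cells the shares were 4.05%, 15.7%, 0.694% and 1.97%, lower in 4 of 4 libraries. The mean difference of 14.6 percentage points had an exact sign-flip permutation p of 0.125 (adjusted p = 0.292). Erythrocytes, which should lack the reporter, held a UMI in 0%, 1.36%, 0% and 0.290% of cells at median depths of 601, 604.5, 1029 and 679 UMIs, where the counts of 0 allow shares of up to 1.71% and 2.04%. After each cell was thinned to 500 UMIs, EGFP remained in 1 of the 103 cells, in 48 hpf sqet33mi59BEt, and the other atrial-type cells had 0.312%, 4.96%, 0.347% and 1.48% (mean difference 3.23 points, higher in 1 of 4 libraries). Against comparison cells matched in total UMIs, with EGFP in 4.05%, 13.3%, 1.67% and 8.33%, the shares were higher in 4 of 4 libraries.

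The RFP reporter was found in 86.5%, 60%, 60% and 50% of the sinoatrial-type cells and in 83.2%, 78.5%, 46.2% and 32.0% of the others (mean difference 4.15 points, exact sign-flip permutation p = 0.75, adjusted p = 0.875). After thinning to 500 UMIs the shares were 35.1%, 20%, 5% and 50% against 45.5%, 56.2%, 15.3% and 18.2%. Erythrocytes held an RFP UMI in 21.1%, 16.8%, 3.40% and 5.22% of cells. Its level was 13.3, 8.17, 3.02 and 5.88 UMIs per 10000 against 29.7, 39.3, 5.92 and 4.47, lower in 3 of 4 libraries, and fell by 1.66 on the log2 scale (SE 0.37, adjusted p = 0.00047).

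The deposited phase calls put 2 of 74, 0 of 5, 1 of 20 and 1 of 4 sinoatrial-type cells in S or G2M, against 19.3%, 38%, 25% and 32.0% of the other atrial-type cells. The shares of 2.7%, 0%, 5% and 25% were lower in 4 of 4 libraries, with a mean difference of -20.4 percentage points (exact sign-flip permutation p = 0.125, adjusted p = 0.292). Against cells matched in total UMIs, with 12.6%, 6.67%, 20% and 25%, they were lower in 3 libraries and equal in 1. Of 29 proliferation genes 2 were tested: mcm2, a replication helicase subunit, differed by -2.01 (SE 0.71, adjusted p = 0.072), and pcna, the replication clamp, by -1.18 (SE 0.44, adjusted p = 0.096). Phase calls were not read as cycling on their own.

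**Figure D4:**
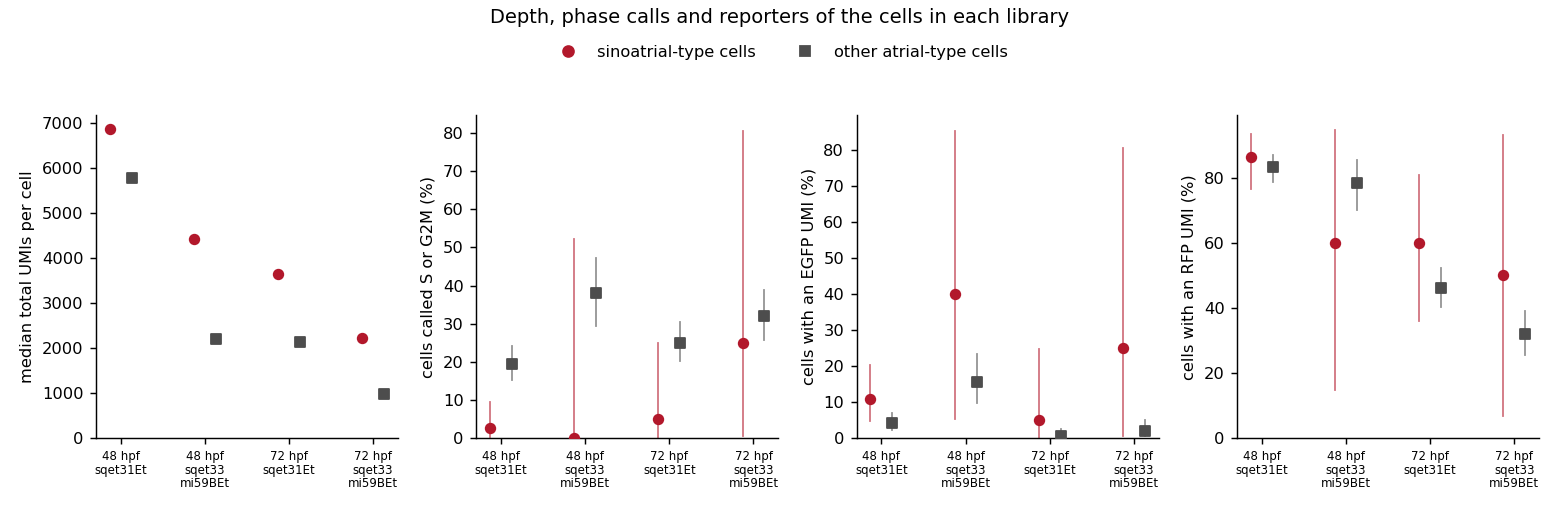
Median total UMIs per cell, share of cells called S or G2M, and shares of cells with an EGFP or an RFP UMI in each library, for sinoatrial-type (red) and other atrial-type cells (grey), with exact binomial 95% intervals for the shares. The red points are higher for depth and EGFP and lower for phase in all 4 libraries; the intervals of the libraries with 5 and 4 cells span most of the scale.

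The sinoatrial-type share of Myocardium cells was 6.35% (exact 95% interval 5.02 to 7.90) in 48 hpf sqet31Et, 0.938% (0.305 to 2.18) in 48 hpf sqet33mi59BEt, 1.57% (0.964 to 2.42) in 72 hpf sqet31Et and 0.494% (0.135 to 1.26) in 72 hpf sqet33mi59BEt. The mean at 48 hpf was 2.61 percentage points above that at 72 hpf, which an exact permutation of 2 against 2 libraries did not separate (p = 0.667, smallest possible 0.333, adjusted p = 0.875). When the rule was applied after thinning to 1000 UMIs, the shares were 1.41%, 0.565%, 0.384% and 0%, the last from 0 of 350 cells with an exact upper bound of 1.05%. Intervals cover counting error only.

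Between the stages the sums of 74 and 5 cells at 48 hpf and of 20 and 4 cells at 72 hpf could be compared, and a count of 0 from such sums does not show that no gene differed. With sums of at least 4 cells, so that each stage had 2, edgeR's quasi-likelihood test gave 0 of 696 genes at an adjusted p of 0.05 (0% called), 16 at an unadjusted p under 0.05, and DESeq2 gave 1. The count was 11 without 48 hpf sqet31Et, 0 without 72 hpf sqet31Et and 7 without either sqet33mi59BEt library. When cells with at least 2 of the 6 genes were summed, 10 of 1378 genes (0.726%) passed, 2 higher and 8 lower at 48 hpf. The 8 included apoa2, tfa, apoa1b and fabp10a, all genes of the liver. apoa2 was at 0.0586 and 0 UMIs per 10000 in the sinoatrial-type cells at 48 hpf and at 3.95 and 4.70 at 72 hpf, and in the other atrial-type cells at 0.0891 and 0.142 and then at 6.58 and 14.2. The 3 liver markers together were at 6.97 and 9.40 in the sinoatrial-type cells at 72 hpf and at 11.2 and 21.7 in the others. The stage difference itself differed between the classes for 4 of 3783 genes (0.106%), in a fit where 72 hpf was 1 library, sqet31Et. It did so for 8 of 2773 (0.288%) with at least 2 of the 6 genes and for 0 of 2877 with 2 libraries per stage.

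Cells that met the rule were also found among the barcodes that the study did not keep, which allowed the contrast to be run on cells the comparison above did not use. These barcodes come from the same libraries, were split by the same rule and carry no Myocardium annotation, so they are not new samples. With more myh6 than myh7l, 60, 126, 13 and 4 such barcodes were not kept, against 72, 5, 20 and 4 kept, and 52, 75, 2 and 0 of them held over 2500 genes, the study's upper limit. A fit over barcodes not kept used 57, 124 and 8 rule-meeting barcodes and left out 72 hpf sqet33mi59BEt, which had 4. In that fit 1022 of 7012 genes (14.6%) passed, 352 (5.02%) higher and 670 (9.56%) lower. The count was 183 without 48 hpf sqet31Et, 77 without 48 hpf sqet33mi59BEt and 1540 without 72 hpf sqet31Et. Of the 190 genes called in kept cells 187 were tested there and 184 pointed the same way, against 76.7% of all genes tested in both, and 159 passed in that direction. The doublet mark in the deposited metadata is set for every barcode that was not kept, so a part played by doublets was not tested.

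Within the study's limits on genes, mitochondrial and hemoglobin share, the kept share of rule-meeting atrial-type barcodes was 93.5%, 9.09%, 76.9% and 50%. Matched in total UMIs, other atrial-type barcodes were kept in 90%, 41.8%, 70.5% and 50%. The difference over the 4 libraries had a mean of -5.71 points (exact sign-flip permutation p = 1), and it was negative in 48 hpf sqet33mi59BEt alone, where 5 of 55 rule-meeting barcodes were kept (exact 95% interval 3.02% to 20%) against 69 of 165 matched barcodes (34.2% to 49.7%). Of the 55, 34 held an EGFP UMI, or 61.8% (47.7% to 74.6%), against 23.0% (16.8% to 30.2%) of the matched barcodes. Thinned to 500 UMIs these shares were 10.9% and 5.45%.

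**Figure D5:**
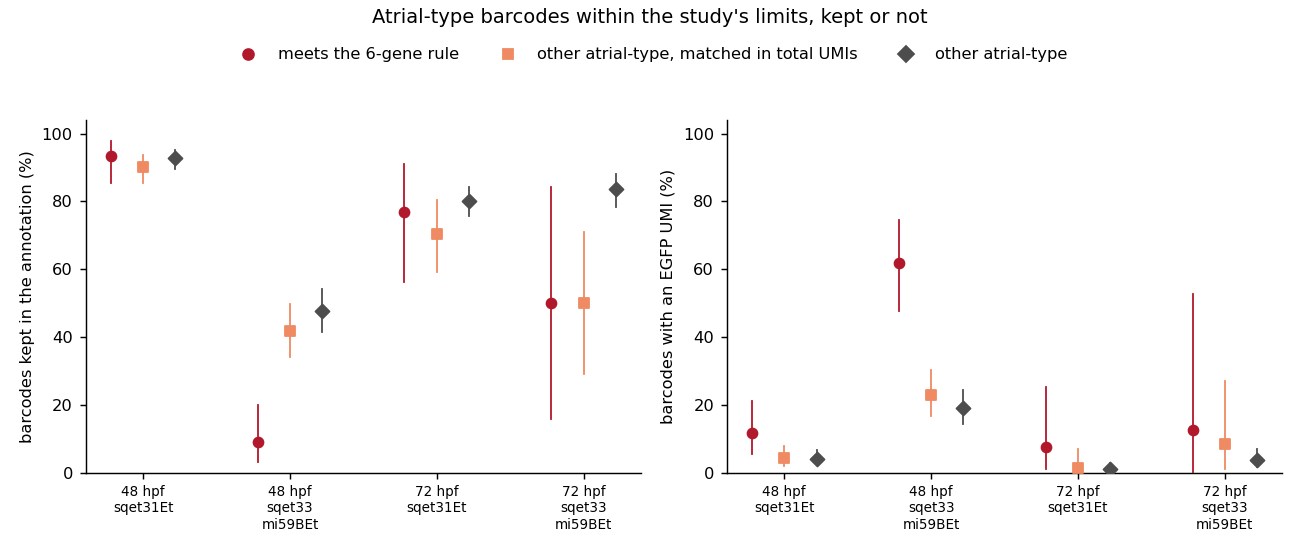
Share of barcodes kept in the annotation (left) and share with an EGFP UMI (right) among atrial-type barcodes within the study's stated limits, for those that met the 6-gene rule (red), others matched in total UMIs (orange) and all others (grey), with exact binomial 95% intervals. In 48 hpf sqet33mi59BEt 9.09% of the rule-meeting barcodes were kept and 61.8% held EGFP.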

How the data were processed

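Deposited were raw UMI counts per gene and barcode for 4 libraries and a table of annotations, phase calls and quality values, the latter including a mitochondrial percent that the authors computed. Per the labels and the study's methods, the authors used Cell Ranger 3.1.0 and bcl2fastq 2.19.0.316 with GRCz11 and an Ensembl 100 annotation cut down to genes that code for protein, to which both reporters were added, then Seurat 4.0.1, keeping cells with 200 to 2500 genes, at most 30% mitochondrial and 10% hemoglobin UMIs and no doublet mark. No other doublet caller was run, since the deposited mark covers every barcode that was not kept. Reads shared by near-identical gene copies cannot be assigned from these counts.

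Counts were summed per library and class (at least 5 cells) and tested with edgeR 4.0.16 (TMM, filterByExpr, quasi-likelihood, library as block, Benjamini-Hochberg), R 4.3.3, after tests on simulated data; DESeq2 1.42.0 was an alternative. The 6 genes, myh6 and myh7l stayed in the totals and out of the tests. SE is the absolute log2 fold change over the square root of F. Values over libraries used exact permutation tests (scipy 1.17.1). The stage comparison was planned for sums of at least 5 cells, which only 1 library at 72 hpf gave, so sums of at least 4 are given. That minimum and the fit on barcodes not kept were chosen after seeing the data. Barcodes not kept entered that fit, and the shares kept, with at least 10 myh6 UMIs per 10000; the fit did not apply the upper limit on genes. The edgeR p-values rest on a spread between libraries that the fit largely pools over genes, not on that of each gene alone. All p-values cover only these libraries, which differ in line and stage.

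Members, lists and the genes to name were chosen with earlier results of these data known. Named were the 15 higher and 10 lower genes with the smallest p and 1 direction in the libraries tested, a fixed set of pacemaker and chamber genes, up to 4 genes per list, genes of the stage tests and the 5 most like the 6; further list genes and markers were named after their values were seen. Symbols came from the reference table, 23608 of 25434 identifiers having 1; where several copies share a human symbol, 26 list names were told apart by the detection shares in the study's marker tables, and otherwise the identifier is printed. Results for some genes are not reported here.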

Additional observations from a re-analysis of the deposited data

Results flagged for a closer look

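In 4 of 3783 genes (0.106%) the difference between the stages differed between sinoatrial-type and other atrial-type cells by an interaction term (edgeR quasi-likelihood, 3 libraries). In that fit 72 hpf was 1 library, sqet31Et, which is assumed to vary like the others. The terms were -10.43 for he1.1, a hatching enzyme (adjusted p = 3.1e-14), 6.83 for hspb9, a small heat shock protein (adjusted p = 0.0018), -4.29 for actc1b, a muscle actin (adjusted p = 0.0055), and -4.26 for dkk1b, a secreted Wnt inhibitor (adjusted p = 0.0055), on the log2 scale, 48 hpf over 72 hpf. The 96 UMIs of he1.1 in the sinoatrial-type cells of 72 hpf sqet31Et came from 2 cells. hspb9 had 13 UMIs in 2 of the 5 cells of 48 hpf sqet33mi59BEt and 1 in each of the other libraries of the fit. For actc1b the levels were 1.23, 0, 3.02 and 0 UMIs per 10000 against 2.59, 0.938, 0.372 and 0.319, and for dkk1b 0.391, 0, 3.29 and 1.18 against 1.37, 1.36, 0.694 and 4.71. In the sinoatrial-type cells of 72 hpf sqet31Et, actc1b had 23 UMIs, all in 1 cell, and dkk1b had 25 UMIs in 4 cells. With all 4 libraries, 2 per stage, 0 of 2877 genes passed and 120 had an unadjusted p under 0.05; DESeq2 gave 1 gene over 3 libraries.

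Outside the comparison of kept cells, 50 barcodes of 48 hpf sqet33mi59BEt met the 6-gene rule within the stated limits and were not kept. Of these 50, 64.0% (exact 95% interval 49.2 to 77.1, counting error within 1 library) held an EGFP UMI. The same was true of 24 of 96 other atrial-type barcodes not kept and matched in total UMIs, or 25% (16.7 to 34.9), and of 1.36% of that library's erythrocytes. The 50 barcodes had a median of 8327.5 UMIs and the erythrocytes of 604.5. Thinned to 500 UMIs, EGFP remained in 5 of the 50 and in 8 of the 96.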

How the results depend on the processing

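The 190 genes called between the classes became 47 with DESeq2, 110 with no filter on low counts, 34 with depth-matched comparison cells and 33 to 235 when a library was left out; in barcodes not kept they were 1022. The 65 list members called became 30, 28 and 26 under the first 3 of these settings, 23 to 73 without a library and 114 in barcodes not kept. These counts have unlike bases: 3783 genes were tested with DESeq2, 16319 with no filter, 1669 with depth-matched cells and 7012 in barcodes not kept. Over all genes tested, 5.02% were called between the classes, 1.24% with DESeq2, 2.04% with depth-matched cells and 14.6% in barcodes not kept. Of 60 named genes called, 59 kept their direction in every alternative in which they were tested. The exception was he1.1, at 2.27, which was -0.37 with DESeq2, -1.90 with at least 4 of the 6 genes, -0.24 in barcodes not kept and -1.62 to 2.74 without a library; hspb9, which was not called at -0.12, was 0.38 to 2.38 without a library. The cause was not tested. Called genes that missed the threshold both with DESeq2 and with depth-matched cells included fxyd1, mylk3, myh7bb, cx36.7, acta1b, mt-nd1 and atp5mc1. Others were colec10, nppb, hand2, dab2ipb, id4, egr1, cebpd and rgs6.

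With no library block 17 genes and 8 list members passed; both classes of a library come from the same cells in suspension, so the pairing is by construction. With the line as a block, 0 genes differed between the stages.

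The stage comparison, with 0 genes, gave 1 with DESeq2, 2 with library totals, 3 with no filter, 10 with at least 2 of the 6 genes and 0 to 11 without a library. The 4 interaction genes became 1 with DESeq2, 8 with at least 2 of the 6 genes and 0 with sums of at least 4 cells; leaving out a library could not be fitted there. The share of cells with an EGFP UMI differed by 3.23 points after thinning in place of 14.6. The difference in total UMIs per cell was 2271 against comparison cells with none of the 6 genes and 968 by means. The stage difference in the sinoatrial-type share of Myocardium cells was 6.93 points when taken of atrial-type cells. Sums of at least 10 cells gave the same fit as leaving out 48 hpf sqet33mi59BEt. Depth limits the 5- and 4-cell sums most.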
